A study of Mus musculus with 4 samples.

Results

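The 48 genes described here encode the machinery that copies DNA and divides the cell. They were chosen by symbol from a fixed list, 25 of them S-phase genes and 23 mitotic genes, and all 48 were found among the 45777 genes of the deposited tables. S-phase genes are switched on as a cell commits to division: cyclin E with Cdk2 releases the E2F transcription factors from the retinoblastoma proteins, and E2F then turns on origin licensing, the replicative helicase and nucleotide synthesis. Mitotic genes follow in G2, when B-Myb, FoxM1 and the MuvB complex act through the cell cycle genes homology region (CHR) of their promoters, often beside a CCAAT box bound by NF-Y. In gastric epithelium these genes mark the dividing progenitors, and TGF-beta signalling through Smad4, the shared partner of the receptor-activated Smads, is known as a brake on the G1 to S step in epithelial cells.

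Mouse gastric organoids, epithelial cells grown in 3 dimensions, were profiled by RNA-seq in 4 libraries. The 2 Control libraries came from the lines CPE and CPG, in which Cdh1 (E-cadherin) and Trp53 (p53) were knocked out. The 2 Smad4 Knockout libraries came from the lines CPS1 and CPS4, in which Cdh1, Trp53 and Smad4 were knocked out, so by the series' labels both groups carry the Cdh1 and Trp53 knockouts and differ by Smad4. All lines were kept in serum and L-WRN conditioned medium, which supplies Wnt, R-spondin and noggin, and were moved before harvest for 2 days to medium with B27 and N2 but without serum or conditioned medium. Whether the lines are clones, which animals they came from and how the Smad4 lines relate to the Control lines is not stated in the labels. With 1 library per line, the p-values below measure only the spread between these libraries, and line and genotype effects cannot be told apart beyond that spread. In bulk RNA, fewer dividing cells and less of a transcript per dividing cell cannot be told apart.

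Gene counts summed to 99845702 and 92334224 for the Control libraries and to 85649781 and 96402585 for the knockouts. The targeted gene Smad4 read 94.5 and 103 CPM (counts relative to the library's total, itself scaled by the trimmed mean of M values) in Control against 54.4 and 52.9 CPM in Smad4 Knockout, a log2 fold change of -0.88 ± 0.10 (SE) with an unadjusted p = 0.000163 and an adjusted p = 0.677 in edgeR's quasi-likelihood test. Transcripts of Cdh1 (30.7 and 26.0 against 30.6 and 44.1 CPM) and Trp53 (4.87 and 6.98 against 5.43 and 4.69 CPM) were counted in every library; the labels do not name the deleted parts. The edgeR test called 0 of 18115 genes at an adjusted p under 0.05 in either direction (0.0% higher and 0.0% lower, with 3.33% and 3.04% at an unadjusted p under 0.05), whereas DESeq2 called 0.525% of its 18657 genes higher and 0.182% lower in Smad4 Knockout, among them Smad4 (adjusted p = 4.87e-08). Of 18 gastric epithelial markers found, 13 reached 1 CPM in at least 1 library, led by Krt8 at up to 3582 CPM. Pgc, Cblif and Atp4b, products of chief and parietal cells, were at 0 in every library. The other parietal marker, Atp4a, was counted in all of them, at 3.91 and 4.02 CPM in Control and 3.6 and 3.54 CPM in Smad4 Knockout. Summed markers of fibroblasts (1.1 to 3.7 CPM over 8 genes), immune cells (3.79 to 4.23 CPM over 6 genes) and endothelium (3.1 to 5.03 CPM over 3 genes) were low in all 4 libraries. Fibroblast and endothelial sums were highest in Control 2 and lowest in Smad4 Knockout 2. Of the gastric markers, DESeq2 called 3 surface and neck cell products higher in Smad4 Knockout and 0 lower. The list had no shared direction: of 14 markers tested in edgeR, 7 were above 0 and 7 below. The neck and gland product Muc6 went the other way, with 16 and 12 counts in Control and 0 in both knockouts, and was not called. Gkn1 read 2.95 and 2.54 against 5.87 and 19.97 CPM (adjusted p = 0.00165) and Tff1 24.7 and 16 against 31.6 and 61.4 CPM (adjusted p = 0.0219), both highest in Smad4 Knockout 2, and Tff2 read 17.9 and 12.9 against 37.6 and 23.4 CPM (adjusted p = 0.0352). The part of these cell types in the results below was not tested.

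The gene groups differed in the letters of their promoters, which are shown first because the grouping into S-phase and mitotic genes rests on function and not on sequence. RefSeq promoter windows (GRCm38.p6, from 250 bases before to 50 bases after each gene start) were matched for 38 of the 48 genes, 21 S-phase and 17 mitotic. No window was matched for Ccne2, Gmnn, Mcm4, Gins2, Ccna2, Cdc25c, Foxm1, Tpx2, Kif20a and Aurkb. The letters searched, on both strands, were TTTCCCGC, TTTGGCGC, TTTCGCGC and TTTGCCGC for an E2F site, TTTGAA and TTTAAA for a CHR, and CCAAT for a CCAAT box. Hits of different motifs overlapped each other once in these windows. For genes with more than 1 start, a hit in any window counted.

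The mitotic cyclin Ccnb1, its kinase Cdk1 and the anaphase-promoting complex activator Cdc20 show the mitotic layout, with CCAAT boxes near a CHR shortly before the gene start. Capitals mark the motif letters. The windows are the 250 bases before the start of Ccnb1 (chr13:100786487-100786736, minus strand), Cdk1 (chr10:69352913-69353162, minus strand) and Cdc20 (chr4:118437344-118437593, minus strand).
Ccnb1: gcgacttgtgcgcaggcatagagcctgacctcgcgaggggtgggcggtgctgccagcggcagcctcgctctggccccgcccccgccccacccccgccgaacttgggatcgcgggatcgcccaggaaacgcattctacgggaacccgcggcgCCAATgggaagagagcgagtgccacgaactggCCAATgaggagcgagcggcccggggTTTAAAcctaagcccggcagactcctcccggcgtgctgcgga
Cdk1: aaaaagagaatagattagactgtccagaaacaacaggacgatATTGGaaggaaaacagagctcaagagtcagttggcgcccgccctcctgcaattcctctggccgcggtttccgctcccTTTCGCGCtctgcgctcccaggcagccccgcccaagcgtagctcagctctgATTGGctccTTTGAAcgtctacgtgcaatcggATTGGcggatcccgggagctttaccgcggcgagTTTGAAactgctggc
Cdc20: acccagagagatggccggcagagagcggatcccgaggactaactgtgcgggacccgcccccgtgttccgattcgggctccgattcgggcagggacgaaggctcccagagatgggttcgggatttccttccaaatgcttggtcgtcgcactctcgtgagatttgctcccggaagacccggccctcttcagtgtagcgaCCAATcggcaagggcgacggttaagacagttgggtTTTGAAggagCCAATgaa
In Ccnb1 the CCAAT boxes begin at -99 and -67 and the CHR at -42, counted from the gene start. In Cdc20 the CHR at -18 lies between CCAAT boxes at -53 and -8. Cdk1 holds 3 CCAAT boxes (-208, -80 and -48), CHR letters at -71 and -15, and, alone among the mitotic genes matched, E2F letters, at -131.

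The helicase subunits Mcm5 and Mcm6 and the kinase Cdk2 are examples of S-phase promoters with E2F letters and without a CHR close to the start. They do not stand for the whole group: 9 of the 21 S-phase promoters matched held E2F letters. Some held CHR letters close to the start, such as Ccne1, at -15. Shown are Mcm5 (chr8:75109259-75109467, plus strand, without the last 41 bases before the start, which lie inside the gene's RefSeq span), Mcm6 (chr1:128359706-128359955, minus strand) and Cdk2 (chr10:128705052-128705301, minus strand), again with the motif letters in capitals.
Mcm5: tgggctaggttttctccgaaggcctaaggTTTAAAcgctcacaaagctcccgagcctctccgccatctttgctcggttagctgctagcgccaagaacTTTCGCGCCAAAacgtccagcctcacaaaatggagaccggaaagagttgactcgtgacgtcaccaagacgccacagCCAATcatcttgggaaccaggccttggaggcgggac
Mcm6: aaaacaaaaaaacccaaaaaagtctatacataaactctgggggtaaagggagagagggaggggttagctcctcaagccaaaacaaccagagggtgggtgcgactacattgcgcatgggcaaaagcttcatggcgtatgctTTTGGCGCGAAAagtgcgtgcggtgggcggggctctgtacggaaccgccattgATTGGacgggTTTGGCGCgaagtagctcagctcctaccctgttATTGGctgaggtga
Cdk2: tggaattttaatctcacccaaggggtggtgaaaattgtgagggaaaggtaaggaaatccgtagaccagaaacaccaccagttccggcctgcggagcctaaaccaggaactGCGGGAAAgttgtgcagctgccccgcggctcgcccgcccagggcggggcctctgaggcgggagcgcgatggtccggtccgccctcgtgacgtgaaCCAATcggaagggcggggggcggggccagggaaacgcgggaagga
In Mcm5 and Mcm6 a pair of E2F matches on opposite strands overlap in 1 stretch, beginning at -153 and at -110, and Mcm6 holds a further E2F match at -47. Mcm5 also holds CHR letters far upstream, at -221. Cdk2 has 1 E2F match, at -140, and 1 CCAAT box.

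Over all matched genes, 16 of 17 mitotic promoters held CHR letters (94.1%), against 7 of 21 S-phase promoters (33.3%) and 30.6% of the 27025 genes of the promoter table. A CCAAT box stood in 16 of 17 mitotic promoters (94.1%) and 14 of 21 S-phase promoters (66.7%), against 41.1% of all genes. E2F letters were in 9 of 21 S-phase promoters (42.9%) and 1 of 17 mitotic promoters (5.88%), against 2.6% of all genes, and 4 of the 5 MCM2-7 genes matched held them. CHR and CCAAT together were in 88.2% of the mitotic and 23.8% of the S-phase promoters, against 13.4% of all genes. Of the mitotic promoters, 12 held 2 or more CCAAT boxes. The 3 S-phase promoters with none of these letters were those of E2f1, Mybl2 and Tyms. In longer lists of other genes of the same phases, CHR letters were in 68.7% of 67 other mitotic promoters and E2F letters in 11.9% of them, and E2F letters were in 37.8% of 45 other S-phase promoters. A match of letters is a description of these windows and no evidence of binding in these organoids.

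**Figure D1:**
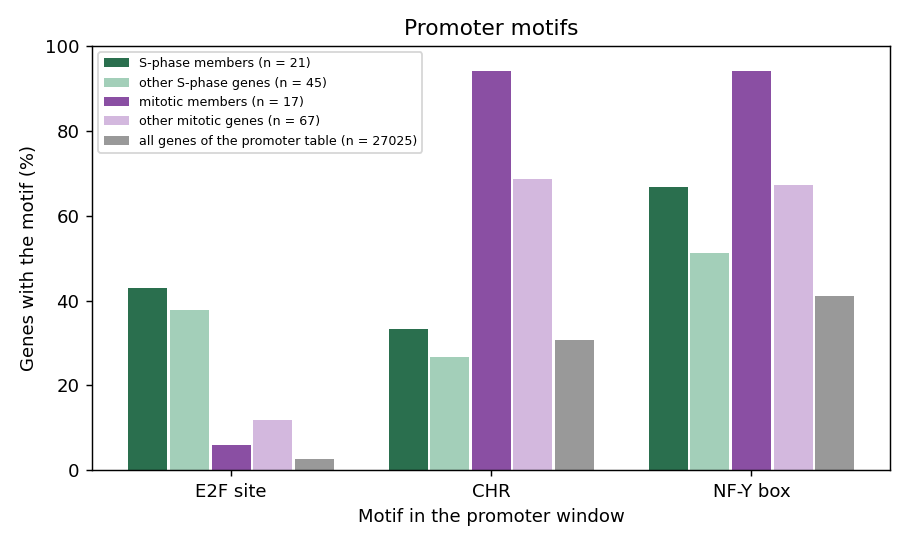
Share of genes (%) whose promoter window holds the letters of an E2F site, a CHR or an NF-Y box (CCAAT), for the S-phase and mitotic genes, longer lists of other genes of each phase, and all genes of the promoter table. CHR letters and NF-Y letters are each in 94.1% of the 17 mitotic promoters, and E2F letters in 42.9% of the 21 S-phase promoters.

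All 48 genes were detected in every library. Of them, 45 were at a mean of 10 TPM (transcript abundance relative to all transcripts, which accounts for length) or more and 46 were above the median of the genes tested, 7.13 TPM; E2f1 and E2f2 were below it. The median level was 55.3 TPM for the S-phase genes and 82.3 TPM for the mitotic genes. Pcna, the sliding clamp of the polymerases, was highest with a mean of 411 TPM, followed by Top2a, the topoisomerase that untangles sister chromatids, with 314 TPM, and the helicase subunit Mcm7 with 218 TPM. The lowest were the transcription factors E2f8 (8.6 TPM), E2f1 (5.58 TPM) and E2f2 (1.26 TPM). The ranges over the 4 libraries overlapped in 37 of the 47 pairs of neighbours in this order, so most neighbouring ranks do not differ beyond the spread. The subunits of the MCM2-7 ring, which assemble in equal numbers, ranged 2.41-fold in mean TPM, from 90.7 for Mcm2 to 218 for Mcm7.

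None of the 25 S-phase genes was called different between Smad4 Knockout and Control, with a smallest adjusted p of 0.785 in edgeR and 0.573 in DESeq2; 2 of them, Ccne2 and Mcm5, reached an unadjusted p under 0.05, both higher in Smad4 Knockout, beside 3.33% of all genes. The estimates leaned upward: 20 of 25 log2 fold changes were above 0, with a median of 0.07 and a range of -0.12 to 0.49, where 49.5% of all genes tested were above 0 with a median of -0.003. In CPM, both knockouts lay above both controls for 7 genes and below for 3, and the groups overlapped for 15. Over all genes these shares were 18.2% above and 18.6% below. Whether groups overlap is judged in CPM from here on except where TPM is named, and some genes differ in this between the units. The 95% interval of the fold change, unadjusted, stayed within 2-fold in both directions for 24 of the 25 genes and within 1.5-fold for 22. E2f2 was the gene that reached past 2-fold. Among the 7562 tested genes averaging 20 CPM or more, 7391 stayed within 2-fold and 6294 within 1.5-fold, so narrow intervals were common at that level. The S-phase genes also varied little over the libraries. Their median ratio of the highest to the lowest library was 1.16, against 1.35 for all genes tested and 1.20 for those averaging 20 CPM or more.

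**Figure D2:**
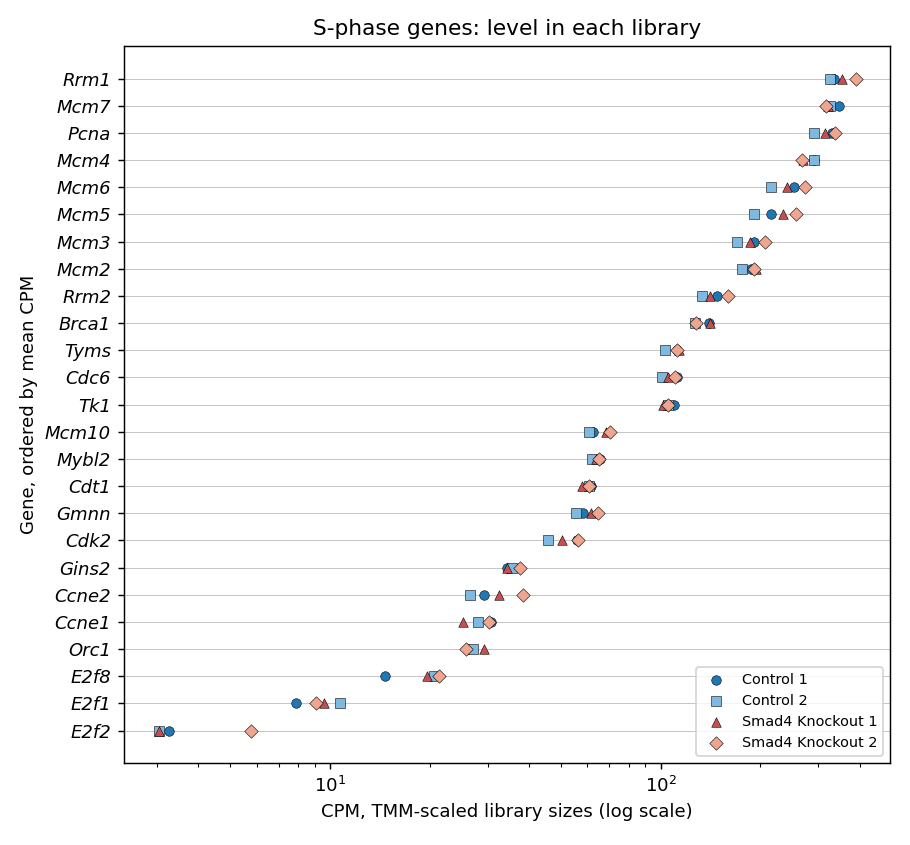
Level of each S-phase gene (CPM, log scale) in the 4 libraries, ordered by mean. The genes span from E2f2, at 3.03 to 5.78 CPM, to Rrm1, at 326 to 389 CPM, and E2f2 stands out by its value in Smad4 Knockout 2.

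The G1/S cyclins and their kinase come first in the order of the cycle. Ccne2 read 29.3 and 26.5 CPM in Control and 32.5 and 38.3 CPM in Smad4 Knockout, a log2 fold change of 0.34 ± 0.14 (SE; 95% interval 0.01 to 0.68) with an unadjusted p = 0.0464 and an adjusted p = 0.785. The knockouts were above the controls, but the gap between the groups was smaller than the gap between the knockouts. Ccne1 read 30.7 and 28.1 CPM against 25.2 and 30.3 CPM, a log2 fold change of -0.08 ± 0.14. Its groups overlapped and its sign turned without Smad4 Knockout 1 (0.04); the groups also overlapped for Cdk2, the kinase both cyclins activate (log2 fold change 0.07).

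The E2F factors, which switch on the S-phase genes, were the lowest expressed of the 48 genes. E2f1, the main activating E2F, read 7.89 and 10.7 CPM in Control and 9.56 and 9.06 CPM in Smad4 Knockout, so both knockouts fell between the controls and the estimate was 0.003 ± 0.20. E2f2, another activator, read 3.25 and 3.03 CPM against 3.04 and 5.78 CPM, a log2 fold change of 0.49 ± 0.34 (95% interval -0.35 to 1.33). Its estimate came from 1 library: without Smad4 Knockout 2 it was -0.03, and Smad4 Knockout 1 lay between the controls. E2f8, a repressor that E2F itself induces, had a log2 fold change of 0.22 with overlapping groups, and Mybl2, which encodes B-Myb and links the S-phase to the mitotic programme, one of 0.01.

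The licensing factors, which load the helicase at origins in G1, differed little. Cdc6, which loads the helicase with Cdt1, read 112 and 101 CPM in Control and 105 and 110.2 CPM in Smad4 Knockout, a log2 fold change of 0.02 ± 0.11. Gmnn, geminin, which blocks relicensing by binding Cdt1, read 58.4 and 55.4 CPM against 61.4 and 64.5 CPM, a log2 fold change of 0.15 ± 0.10 (unadjusted p = 0.204, adjusted p = 0.884). The geminin values of the groups did not overlap, and those of its target Cdt1 did not either, in the other direction (log2 fold change -0.05). In TPM the groups lay apart for geminin and overlapped for Cdt1 (43.7 and 46.1 against 45 and 44). Orc1, a subunit of the origin recognition complex, was at 0.05 with overlapping groups.

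The MCM2-7 helicase is 1 ring of 6 different subunits, yet the estimates of its genes were spread from -0.12 to 0.28. Mcm5 read 216 and 191 CPM in Control and 235 and 257 CPM in Smad4 Knockout, a log2 fold change of 0.28 ± 0.11 (95% interval 0.003 to 0.55; unadjusted p = 0.0484, adjusted p = 0.785). Mcm4 read 291 and 292 CPM against 269 and 268 CPM, a log2 fold change of -0.12 ± 0.09. Mcm2 read 188 and 176 CPM against 194 and 192 CPM, a log2 fold change of 0.08 ± 0.10. The groups did not overlap for any of these 3 subunits, with the knockouts above for Mcm5 and Mcm2 and below for Mcm4. Mcm7 also had both knockouts below both controls (-0.07), while the groups overlapped for Mcm3 (0.12) and Mcm6 (0.13). That both knockouts lay below both controls for Mcm4 and Mcm7 holds in CPM only. In TPM the groups overlapped for Mcm4 (126 and 135 against 128 and 119) and Mcm7 (221 and 223 against 222 and 208). The knockouts lay above the controls in TPM for Mcm3 (98.3 and 93.4 against 105 and 109) and Mcm6 (130.2 and 116 against 133 and 141), as for Mcm2 and Mcm5. The difference between subunits was not tested.

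At the fork, Mcm10, which helps activate the helicase, read 62.5 and 60.7 CPM in Control and 68.6 and 70.5 CPM in Smad4 Knockout, a log2 fold change of 0.17 ± 0.10 (unadjusted p = 0.129, adjusted p = 0.849). Pcna read 331 and 291 CPM against 315 and 336 CPM, a log2 fold change of 0.06 ± 0.11. Mcm10 did not overlap between groups, whereas Pcna did, and so did Gins2 (0.04), a subunit of the GINS part of the active helicase. In TPM Pcna did not overlap either, at 409 and 384 against 427 and 423. Of the genes that supply nucleotides, Rrm1, the large subunit of ribonucleotide reductase, read 334 and 326 CPM against 353 and 389 CPM, a log2 fold change of 0.17 ± 0.10 (unadjusted p = 0.149, adjusted p = 0.860). Rrm2, the small subunit, whose level follows S phase, read 148 and 133 CPM against 141 and 160.4 CPM, a log2 fold change of 0.10 ± 0.12. Rrm1 was apart between groups in CPM and Rrm2 was not, while in TPM both were apart (106 and 102 against 111 and 117 for Rrm2). Tyms, thymidylate synthase, was at 0.08 without overlap in CPM but with overlap in TPM, and Tk1, thymidine kinase, was at -0.05 with overlap. Brca1, a DNA repair gene that cycles with S phase, was at 0.01.

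None of the 23 mitotic genes was called either, with a smallest adjusted p of 0.754 in edgeR and 0.511 in DESeq2; 2 of them, Ccnb1 and Cenpf, reached an unadjusted p under 0.05, both higher in Smad4 Knockout, beside 3.33% of all genes. Here 19 of 23 log2 fold changes were above 0, against 49.5% of all genes tested, with a median of 0.09 and a range of -0.05 to 0.33. In CPM, both knockouts lay above both controls for 7 genes and below for 1, and the groups overlapped for 15, beside 18.2% above and 18.6% below of all genes. The 95% interval stayed within 2-fold for all 23 genes and within 1.5-fold for 22. Among the 7562 tested genes averaging 20 CPM or more, 7391 stayed within 2-fold and 6294 within 1.5-fold. For the mitotic genes, the median ratio of the highest to the lowest library was 1.19, and the largest was 1.5, for Cdc25c.

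**Figure D3:**
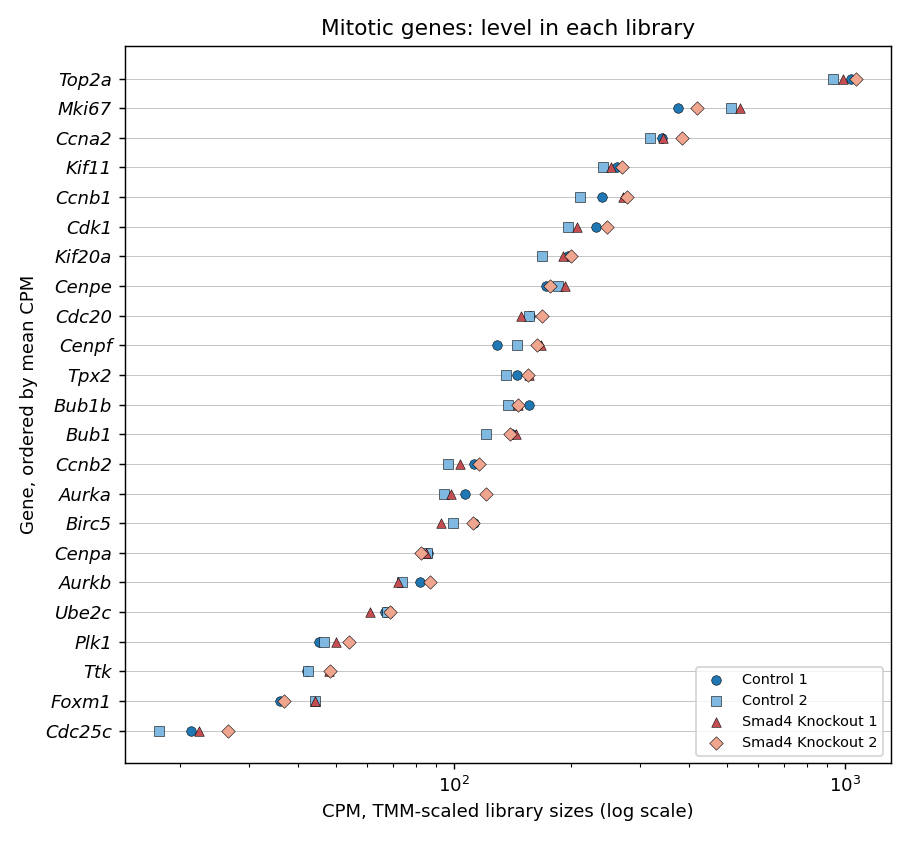
Level of each mitotic gene (CPM, log scale) in the 4 libraries, ordered by mean. Top2a lies highest, at 933 to 1067 CPM, and Mki67 next, spread from 375 CPM in Control 1 to 541 CPM in Smad4 Knockout 1.

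Entry into mitosis is driven by cyclin B with Cdk1. Ccnb1 read 239.8 and 211 CPM in Control and 271 and 278 CPM in Smad4 Knockout, a log2 fold change of 0.28 ± 0.11 (95% interval 0.02 to 0.54; unadjusted p = 0.0394, adjusted p = 0.754), the smallest p among the 48 genes. Cdk1 read 231 and 196 CPM against 207 and 247 CPM, a log2 fold change of 0.09 ± 0.14. Cdc25c, the phosphatase that activates Cdk1, read 21.3 and 17.7 CPM against 22.3 and 26.5 CPM, a log2 fold change of 0.33 ± 0.16 (unadjusted p = 0.0898, adjusted p = 0.832). The knockouts were above the controls for Ccnb1 and Cdc25c, while Cdk1 had 1 knockout below Control 1 and 1 above it. Cyclin A2 (Ccna2, 0.15) had both knockouts above both controls, and cyclin B2 (Ccnb2, 0.06) did not. Foxm1, the transcription factor of the mitotic programme, read highest in Control 2 and lowest in Control 1, with a log2 fold change of 0.02.

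Of the kinases and motors that build the spindle, Plk1, polo-like kinase, read 45.4 and 46.5 CPM in Control and 50.1 and 54.0 CPM in Smad4 Knockout, a log2 fold change of 0.18 ± 0.11 (unadjusted p = 0.144, adjusted p = 0.857). Tpx2, which brings Aurora A to the spindle, read 145 and 136 CPM against 156 and 155 CPM, a log2 fold change of 0.14 ± 0.10 (unadjusted p = 0.189, adjusted p = 0.881). Neither gene overlapped between groups. Aurora A itself (Aurka, 0.12), the spindle motor Kif11 (0.05) and the cytokinesis motor Kif20a (0.10) did in CPM. In TPM the knockouts lay above the controls for each of them.

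Chromosome structure and the chromosomal passenger complex, which corrects wrong attachments, showed no shared direction. Aurkb, its kinase, read 82.0 and 74.0 CPM in Control and 71.9 and 87.0 CPM in Smad4 Knockout, a log2 fold change of 0.03 ± 0.13. Birc5, survivin, another subunit of that complex, read 113 and 99.5 CPM against 92.8 and 112 CPM, a log2 fold change of -0.05 ± 0.13. Both had the knockouts on either side of Control 2, with Smad4 Knockout 1 lowest. Top2a read 1035 and 933 CPM against 991 and 1067 CPM, a log2 fold change of 0.06 ± 0.10. Mki67, the proliferation marker Ki-67 that coats mitotic chromosomes, read 375 and 511 CPM against 541 and 418 CPM, a log2 fold change of 0.11 ± 0.19 (95% interval -0.36 to 0.58). Its spread within each group was larger than the difference between the groups: it was 1.44-fold over the libraries, where Top2a was 1.14-fold.

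At the kinetochore, Cenpf read 129 and 145 CPM in Control and 167 and 163 CPM in Smad4 Knockout, a log2 fold change of 0.26 ± 0.11 (95% interval 0.002 to 0.53; unadjusted p = 0.0486, adjusted p = 0.785). Ttk, the Mps1 kinase of the spindle checkpoint, read 42.1 and 42.4 CPM against 48.0 and 48.3 CPM, a log2 fold change of 0.19 ± 0.10 (unadjusted p = 0.116, adjusted p = 0.840). For Ttk the replicates nearly coincided within each group and the groups lay apart, yet the fit, which shares its estimate of spread over genes, did not call it. The checkpoint genes Bub1 (0.11) and Bub1b (-0.01) and the kinetochore motor Cenpe (0.05) overlapped between groups. Cenpa, the centromeric histone, was the mitotic gene with both knockouts below both controls in CPM (-0.03). In TPM the groups overlapped for Cenpa (94.4 and 101 against 102 and 91.3) and lay apart for Bub1. Of the anaphase-promoting complex, the activator Cdc20 read 157 and 156 CPM against 149 and 168 CPM, a log2 fold change of 0.01 ± 0.11. The ubiquitin-conjugating enzyme Ube2c read 66.6 and 67.4 CPM against 61.1 and 68.7 CPM, a log2 fold change of -0.05 ± 0.11. In both, the knockouts lay on either side of the controls.

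**Figure D4:**
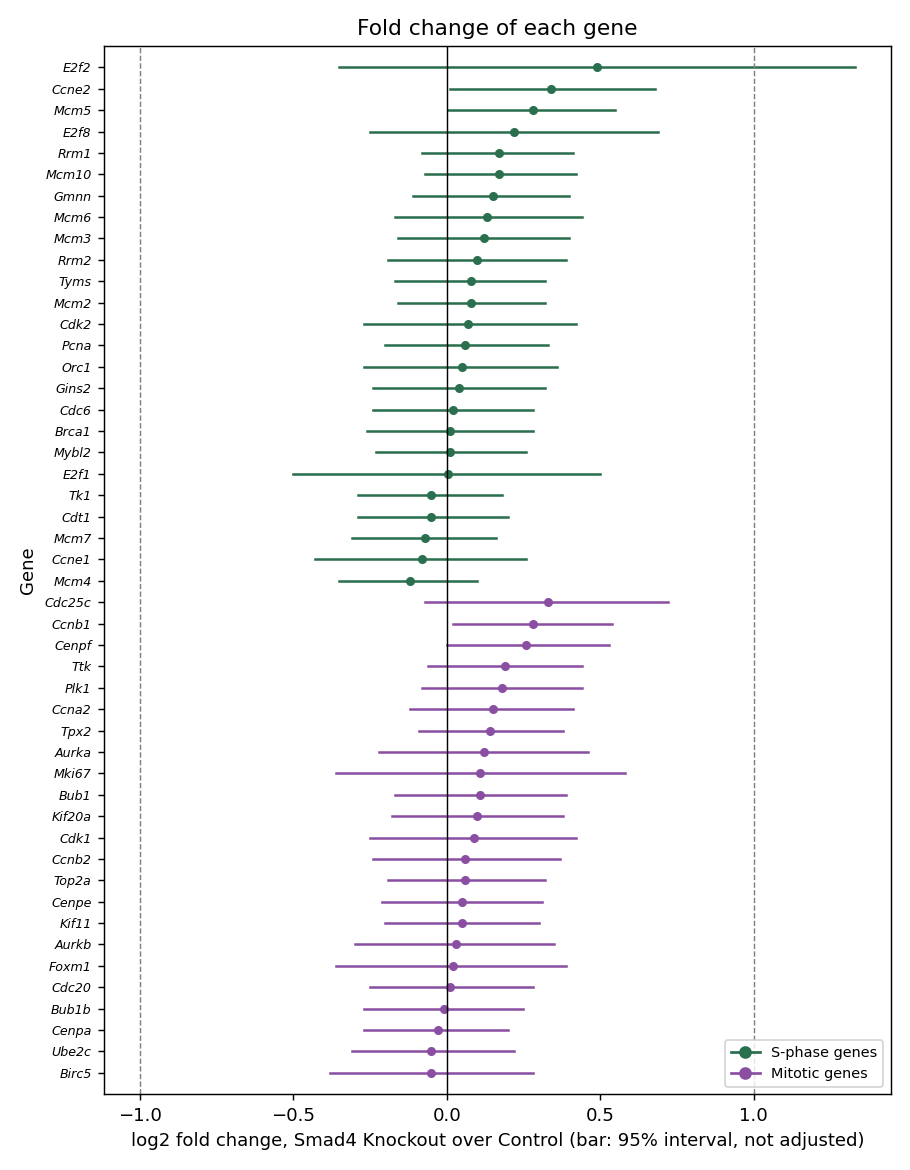
Log2 fold change of each gene, Smad4 Knockout over Control, with its unadjusted 95% interval, S-phase genes above and mitotic genes below. Dashed lines mark a 2-fold difference, which the interval of E2f2 passes (-0.35 to 1.33), and the intervals of Ccne2, Mcm5, Ccnb1 and Cenpf are the 4 that lie above 0.

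On the CPM scale the upward lean was shared by most genes and followed 2 libraries. Control 2 was the lowest library for 16 of the 25 S-phase genes (64.0%) and 12 of the 23 mitotic genes (52.2%), against 28.9% of all genes tested. Smad4 Knockout 2 was the highest for 13 (52.0%) and 14 (60.9%), against 29.1%. Relative to each gene's mean log2 CPM over the libraries, the median S-phase gene was at 0.02 and -0.09 in Control 1 and 2 and at -0.01 and 0.09 in Smad4 Knockout 1 and 2. The mitotic genes stood at nearly the same places, 0.02, -0.09, 0.002 and 0.09. On this scale the replicates of 1 genotype lay about as far apart as the median log2 fold changes between genotypes (0.07 for S-phase and 0.09 for mitotic genes), or further. The median difference of Control 2 from Control 1 was -0.10 for S-phase and -0.12 for mitotic genes, and that of Smad4 Knockout 2 from Smad4 Knockout 1 was 0.07 and 0.09. Among all tested genes averaging 20 CPM or more, these medians were -0.05 between the controls and -0.002 between the knockouts. In that set Control 2 was lowest for 33.8% and Smad4 Knockout 2 highest for 27.8%, so part of the Control shift was common at this level. The pairs of libraries across genotypes differed. Smad4 Knockout 1 set against Control 1 gave medians of -0.04 and -0.02, and Smad4 Knockout 2 against Control 1 gave 0.03 and 0.08. Against Control 2, Smad4 Knockout 1 gave 0.11 and 0.08 and Smad4 Knockout 2 gave 0.12 and 0.19. Without Control 2, 15 of 25 S-phase and 13 of 23 mitotic estimates were above 0, and without Smad4 Knockout 2, 16 and 15 were.

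Some genes ran against this order of the libraries. Mki67, Foxm1, E2f1, E2f8, Cenpe and Cenpf, picked out here after their values were seen, were all higher in Control 2 than in Control 1, by 0.11 for Cenpe to 0.48 for E2f8 on the log2 CPM scale. All but E2f8 were also lower in Smad4 Knockout 2 than in Smad4 Knockout 1, with log2 differences from -0.37 for Mki67 to -0.04 for Cenpf. The 2 libraries that stand at the ends for most cell cycle genes were therefore the middle ones for Mki67.

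**Figure D5:**
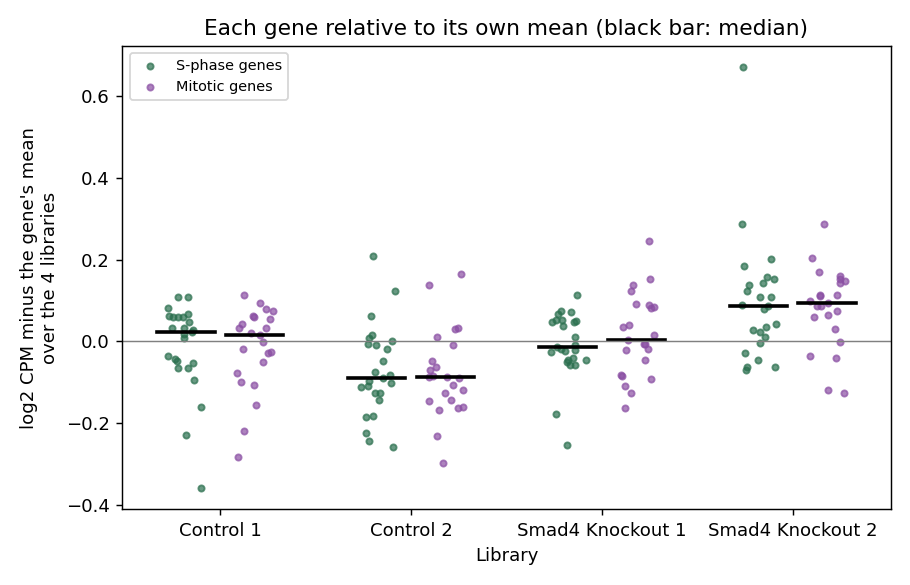
Deviation of each gene's log2 CPM from its own mean over the 4 libraries, S-phase and mitotic genes side by side, with the median as a black bar. The medians are lowest in Control 2 (-0.09 for both groups) and highest in Smad4 Knockout 2 (0.09 for both).

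On the TPM scale this order of the libraries was not seen. Relative to each gene's mean log2(TPM + 1), the median S-phase gene was at -0.04 and -0.05 in Control and 0.05 and 0.05 in Smad4 Knockout, and the median mitotic gene at -0.05 and -0.06 against 0.07 and 0.06. The replicates nearly coincided there and the genotypes lay apart. Control 1 and 2 were lowest for 9 and 10 of the S-phase genes and 9 and 12 of the mitotic genes, and Smad4 Knockout 1, not 2, was highest for the larger number of mitotic genes (13 against 9). The lowest and highest library in TPM was not counted over all genes, so these counts have no share to be set beside. Summed TPM of the S-phase genes was 2022 and 1999.8 in Control and 2148 and 2141 in Smad4 Knockout, a ratio of 1.066, and that of the mitotic genes was 2027 and 2025 against 2194 and 2189, a ratio of 1.082. The sums did not overlap between the genotypes and hardly differed within them. Summed CPM, by contrast, was 3223 and 2993 against 3172 and 3341 for the S-phase genes (ratio 1.048), with overlap, and 4292 and 4128 against 4429 and 4562 for the mitotic genes (ratio 1.068), without. Gene by gene in TPM, both knockouts lay above both controls for 13 S-phase and 13 mitotic genes and below for none, beside 24.3% above and 13.9% below of the 13277 genes with at least 1 TPM in 2 libraries. Of the S-phase genes apart in TPM, Cdk2, Cdc6, E2f2, Mcm3, Mcm6, Pcna and Rrm2 overlapped in CPM. So did the mitotic genes Ccnb2, Aurka, Kif11, Kif20a, Top2a and Bub1. The gap in TPM was small for some, such as Aurka (87.5 and 82.4 against 87.7 and 101). All genes leaned upward on this scale too: by limma on log2(TPM + 1), 7509 of the 13277 were above 0. There, 20 of 25 S-phase and 20 of 23 mitotic estimates were above 0, with none called and smallest adjusted p of 0.694 and 0.586.

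Of longer lists of the same processes, the mitotic one leaned upward about as far as the 23 genes above. The S-phase one leaned less far than the 25. The ratio of summed CPM, Smad4 Knockout over Control, was 1.005 for the other S-phase genes and 1.061 for the other mitotic genes. Of 60 other S-phase genes (polymerases, primases, replication factor C, fork protection and chromatin assembly), none was called, 35 were above 0 (58.3%, against 49.5% of all genes tested) and the median was 0.04. Their smallest p-values belonged to Chaf1a, a chromatin assembly factor (66.9 and 74.3 against 61.9 and 57.3 CPM, -0.24 ± 0.11), Prim2, a primase subunit (33.6 and 27.5 against 33.7 and 42.4 CPM, 0.32 ± 0.17), and Pole2, a polymerase epsilon subunit (24.1 and 19.6 against 25.9 and 26.6 CPM, 0.26 ± 0.15). Of 80 other mitotic genes none was called, 59 were above 0 (73.8%) with a median of 0.08, and 8 reached an unadjusted p under 0.05, all of them higher in Smad4 Knockout, beside 3.33% of all genes. The smallest were those of Cdca3, which promotes entry into mitosis (61.6 and 53.5 against 70.4 and 82.2 CPM, 0.41 ± 0.13, adjusted p = 0.691 in edgeR), Spc25, a kinetochore subunit (24.6 and 23.1 against 28 and 35.7 CPM, 0.42 ± 0.15), and Aspm, a spindle pole protein (115 and 114 against 136 and 138 CPM, 0.25 ± 0.09). Both knockouts lay above both controls for 30 of these 80 and below for 6, and above for 15 and below for 7 of the 60 other S-phase genes, beside 18.2% above and 18.6% below over all genes.

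The regulators upstream were looked at as well. Of 14 genes of the retinoblastoma family, the other E2F and DP factors and MuvB, 10 overlapped between the groups (as did 11436 of all 18115 genes), 9 were above 0 with a median of 0.05 and none was called. Rb1, the retinoblastoma protein, read 12.3 and 13.4 CPM in Control and 17.2 and 15.1 CPM in Smad4 Knockout, a log2 fold change of 0.33 ± 0.15 (unadjusted p = 0.074, adjusted p = 0.819 in edgeR). E2f5, a repressive E2F, was at 0.27 and Tfdp1, the DP partner of the E2F proteins, at 0.15. Replication-dependent histone genes, which are read out in S phase and without poly(A) tails, so that a total RNA library captures them, showed the library order most strongly, though they were added after values were seen and include near-identical copies whose reads may be shared. Control 2 was lowest for 48 of 63 of them and Smad4 Knockout 2 highest for 51, the median was 0.11, and the groups overlapped for 62.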

How the data were processed

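Total RNA of 4 mouse gastric organoid lines was sequenced from stranded libraries, 2 per genotype. Per the submitters' processing notes, the tools were bcl2fastq 2.20.0, Trimmomatic, HISAT2 2.1.0 and StringTie 2.1.3b with the mm10 build; the strand setting and the handling of reads shared by gene copies are nowhere stated in them. The authors deposited, per the file headers, a read count per gene (handled as an estimated count, since the authors quantified with StringTie, though all values are whole numbers) and TPM per gene; 5 other columns were not used. The columns of Control 2 carry its title with an added 2. Of the symbols, 26 turned into dates were restored, none of them a gene described here.

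Counts were fitted with edgeR 4.0.16 (filterByExpr, trimmed mean scaling, quasi-likelihood test on genotype, 18115 genes, common coefficient of variation 26.08%; R 4.3.3) and adjusted by Benjamini-Hochberg over all of them; all 48 genes passed the filter, the lowest with 263 counts in a library. Standard errors and 95% intervals, unadjusted, come from the test's F and its degrees of freedom. The fit was also run on simulated counts, but only with changes larger than any fold change given for the 48 genes, so that run says nothing on differences of this size. Alternatives were DESeq2 1.42.0, its size factors in edgeR, no filter, limma 3.58.1 on log2(TPM + 1) and log2(TPM + 0.1) for genes of at least 1 TPM in 2 libraries, and leaving out each library. At 85649781 to 99845702 counts per library, counting error of the 48 genes is small beside the common coefficient of variation of 26.08%. That coefficient is pooled over all genes tested and does not measure the spread of the 48 genes. The counting error is not small beside the gap between replicates for genes such as Ttk and Mcm4, whose replicates nearly coincided. Values in every library are given for 7 set genes of each phase, for the 6 with the smallest p and for the 2 furthest from 0 against the phase's median; of other lists the 3 genes with the smallest p are named. Genes, lists, motifs and tests were chosen with earlier results of these data known. Coordinates and promoter windows are from RefSeq (GRCm38.p6).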

Additional observations from a re-analysis of the deposited data

How the results depend on the processing

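No gene of the 48 was called under any alternative run; the smallest adjusted p was 0.357, on leaving out Smad4 Knockout 1. DESeq2 called 98 genes higher and 34 lower over all genes, and leaving out 1 library gave 0 to 48 higher and 0 to 44 lower; in each case the cause was not tested. The median log2 fold change ranged from 0.02 to 0.13 for the S-phase genes and from 0.01 to 0.16 for the mitotic genes over the fits without 1 library, lowest without Control 2 and highest without Control 1. The sign changed for 25 of the 48 genes on leaving out a library and for 3 under another normalization, filter, tool or unit; 21 kept their sign throughout. Over the fits without 1 library, Ccne1 ranged from -0.21 to 0.04, E2f1 from -0.20 to 0.24, Cdc6 from -0.05 to 0.09, Pcna from -0.03 to 0.16, E2f2 from -0.03 to 0.88, Mki67 from -0.09 to 0.35, Top2a from -0.01 to 0.14, Cdk1 from -0.03 to 0.21, Aurkb from -0.10 to 0.16, Cdc20 from -0.06 to 0.10, Birc5 from -0.18 to 0.08 and Ube2c from -0.12 to 0.04. Without a change of sign, Rrm2 ranged from 0.02 to 0.19, Mcm2 from 0.03 to 0.13, Ccne2 from 0.23 to 0.46, Mcm5 from 0.19 to 0.37, Ccnb1 from 0.19 to 0.38, Cdc25c from 0.20 to 0.47, Cenpf from 0.18 to 0.35, Rrm1 from 0.11 to 0.24, Gmnn from 0.11 to 0.19, Plk1 from 0.14 to 0.23 and Tpx2 from 0.10 to 0.19. With only the bases before the gene start, CHR letters were in 70.6% of the mitotic promoters, 28.6% of the S-phase promoters and 28.1% of all genes. E2F letters were then in 28.6% of the S-phase promoters, 5.88% of the mitotic promoters and 2.16% of all genes. A fit without 1 library leaves 1 group with a single library, which is taken to vary like the other. No paired analysis was possible because the labels give no replicate numbers that pair the lines.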
